A study of Marchantia polymorpha with 12 samples.

Results

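MpPAL7 (Mp4g14110) and MpPKS/CHS11 (Mp4g14120) are neighbouring genes on chromosome 4 of the liverwort Marchantia polymorpha. The first is named as a phenylalanine ammonia-lyase (PAL), and the second as a type III polyketide synthase of the chalcone synthase type (PKS/CHS). They were chosen by their gene IDs, as 2 of 19421 genes counted, for the way they changed together over the 4 groups of the study. Each gene was represented by 1 transcript, of 2640 bases for MpPAL7 and 1766 bases for MpPKS/CHS11. Since every contrast among the 4 groups entered that choice, the values of the pair across groups are given as a description, without a test.

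The study asked how the wound-induced factor MpERF15 acts in the regeneration of thalli. Messenger RNA was sequenced from 14-day-old thalli of the line labelled Mperf15ko and of the laboratory accession Tak-1, which is male. In each line, thalli were collected 1 h after their blades had been wounded, or intact as controls. The 4 groups were therefore wounded Mperf15ko, control Mperf15ko, wounded Tak-1 and control Tak-1, with 3 libraries each. Plants had been grown from gemmae, the vegetative propagules of the thallus, and each library came from a biological replicate of 12 plants. What lesion Mperf15ko carries, and whether it is 1 line or several, is not stated in the labels.

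Phenylalanine ammonia-lyase removes the amino group of phenylalanine and so opens the phenylpropanoid pathway. Cinnamate 4-hydroxylase (C4H) and 4-coumarate:CoA ligase (4CL) turn the product into p-coumaroyl-CoA, and chalcone synthase joins that with malonyl-CoA units to form the chalcone from which flavonoids are made. Related type III polyketide synthases use the same kind of starter for other products, such as the bibenzyls of liverworts. In Marchantia the pathway feeds flavones, the auronidin pigments of the cell wall and the bisbibenzyls stored in oil body cells. A symbol of the PKS/CHS type names a family of enzymes and does not say which product a given member makes.

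Estimated reads per library ranged from 17.2 to 30.4 M. The gene named in the mutant label, MpERF15, had 383, 531 and 911 estimated reads in wounded Mperf15ko and 60, 92 and 46 in control Mperf15ko. In wounded Tak-1 it had 458, 1029 and 1087, and in control Tak-1 59, 51 and 54. Its reads overlapped between the lines in each state, so they are no check of the genotype, and the directions between the lines given here rest on the labels alone.

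MpPAL7 transcripts were lower in Mperf15ko than in Tak-1 in both states, and higher after wounding than in control thalli in both lines. The level was 9.32, 9.83 and 10.5 TPM (a per-library share of transcripts that allows for their length) in wounded Mperf15ko, replicates 1 to 3, against 1.22, 0.457 and 0.626 TPM in control Mperf15ko. It was 33.5, 45.4 and 39.1 TPM in wounded Tak-1, against 3.36, 4.45 and 4.79 TPM in control Tak-1. None of the 4 groups overlapped another. Among the control Mperf15ko libraries replicate 1 was highest, with 51 reads of MpPAL7 where the others had 17 and 23. In bulk tissue, fewer cells of a type and less RNA per cell cannot be told apart.

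MpPKS/CHS11 showed the same 2 directions, with a deeper gap between the lines. Its level was 4.17, 4.19 and 3.71 TPM in wounded Mperf15ko, against 0.582, 0.311 and 0.231 TPM in control Mperf15ko. It was 44.4, 58.5 and 40.3 TPM in wounded Tak-1, against 5.12, 6.04 and 8.55 TPM in control Tak-1. Again no group overlapped another. The control Mperf15ko libraries held 16, 7 and 5 reads of this gene, whereas wounded Mperf15ko held 81, 95 and 72.

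**Figure D1:**
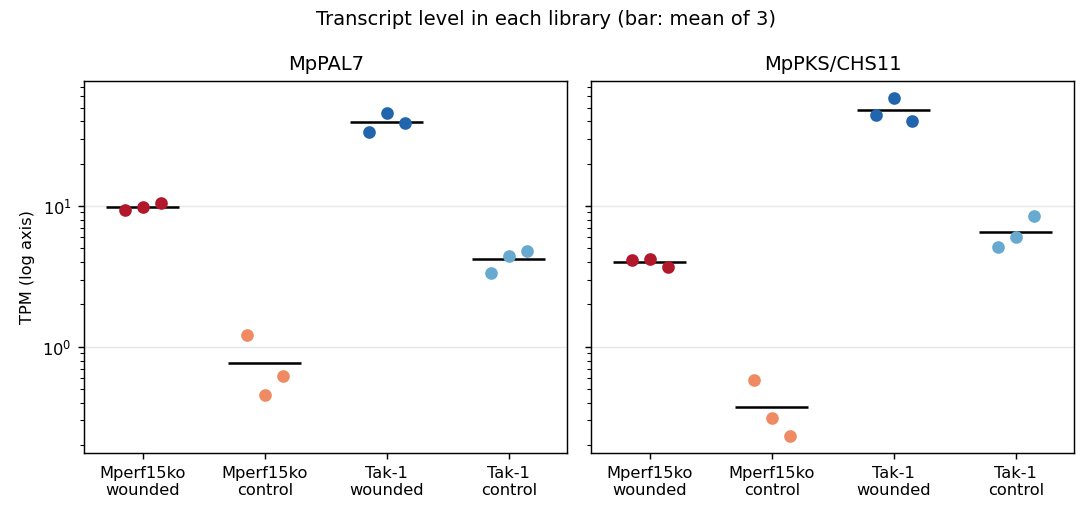
Level of MpPAL7 (left) and MpPKS/CHS11 (right) in TPM on a log axis, with 1 point for each library and a bar at the mean of the 3 libraries in each group. Wounded Mperf15ko lies above control Tak-1 for MpPAL7 (means 9.88 and 4.2 TPM) and below it for MpPKS/CHS11 (means 4.02 and 6.57 TPM).

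Expressed as fold changes fitted to the counts, MpPAL7 was 12.6-fold higher in wounded than in control Mperf15ko (log2 fold change 3.65, SE 0.256). In Tak-1 it was 9.3-fold higher after wounding (3.22, SE 0.206). Between the lines it was 5.33-fold lower in control Mperf15ko than in control Tak-1 (-2.42, SE 0.264) and 3.95-fold lower in wounded Mperf15ko than in wounded Tak-1 (-1.98, SE 0.194). The ammonia-lyase gene thus had a larger span between wounded and control thalli than between the lines.

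For MpPKS/CHS11 the wounded thalli were 10.6-fold higher than the controls in Mperf15ko (log2 fold change 3.40, SE 0.359) and 7.19-fold higher in Tak-1 (2.85, SE 0.225). Control Mperf15ko was 17.3-fold lower than control Tak-1 (-4.11, SE 0.337), and wounded Mperf15ko was 11.7-fold lower than wounded Tak-1 (-3.55, SE 0.24). The polyketide synthase gene thus had its larger span between the lines. Folds against the low control Mperf15ko level depend on how low values are treated. On log2(TPM + 0.5), MpPKS/CHS11 gave 2.39 for wounding in Mperf15ko and -3.01 between the lines in control thalli, and MpPAL7 gave 3.08 and -1.92. The comparisons of a line's wounding and of the lines in 1 state share libraries, so their values are not independent of each other.

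The groups between the extremes changed places from 1 gene to the other. Control Mperf15ko was lowest and wounded Tak-1 highest for both genes. For MpPAL7 the mean of wounded Mperf15ko was 2.35 times that of control Tak-1, and the lowest wounded Mperf15ko library, at 9.32 TPM, exceeded the highest control Tak-1 library, at 4.79 TPM. For MpPKS/CHS11 the highest wounded Mperf15ko library, at 4.19 TPM, lay below the lowest control Tak-1 library, at 5.12 TPM, and the mean of control Tak-1 was 1.63 times that of wounded Mperf15ko. Wounded Mperf15ko thalli therefore carried more MpPAL7 transcript but less MpPKS/CHS11 transcript than intact Tak-1 thalli.

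The ratio of the 2 genes separated the lines. MpPKS/CHS11 over MpPAL7, in TPM, was 0.448, 0.426 and 0.354 in wounded Mperf15ko and 0.478, 0.68 and 0.37 in control Mperf15ko. It was 1.33, 1.29 and 1.03 in wounded Tak-1 and 1.52, 1.36 and 1.78 in control Tak-1. Every Mperf15ko library had less MpPKS/CHS11 than MpPAL7, and every Tak-1 library had more. Within Mperf15ko the wounded and control ratios overlapped, while within Tak-1 the wounded ratios lay below the control ratios by a narrow margin.

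The wound response of Mperf15ko minus that of Tak-1 was smaller for both genes than the wound response of either line. It was 0.43 (SE 0.332) for MpPAL7 and 0.56 (SE 0.447) for MpPKS/CHS11 on the log2 scale of fitted counts. From log2(TPM + 0.5) the same differences were -0.01 and -0.39, so their sign depends on how low values are treated. Control Mperf15ko replicate 1 weighs on them: without it they were 0.91 and 1.07.

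Part of the reads may have been divided between related genes. The deposited counts of both genes were fractional in 12 of 12 libraries, as happens where the counting program divides reads that match more than 1 transcript. The 11 consecutive PAL and PKS/CHS genes around the pair, described further on, were therefore also summed by family. The 4 PAL genes, MpPAL-like2 included, together had a mean of 41.1 ± 5.51 TPM in wounded Mperf15ko and 18.2 ± 4.46 TPM in control Mperf15ko, and of 162 ± 24.6 TPM in wounded Tak-1 and 49.4 ± 3.14 TPM in control Tak-1 (SD, n = 3 each). Much of each sum was MpPAL-like2, with means of 24.7 TPM in wounded and 14.2 TPM in control Mperf15ko. In wounded and control Tak-1 the means of MpPAL-like2 were 82.4 and 32.5 TPM. The sum of the 4 genes had the 4 directions of MpPAL7, with log2 fold changes of 1.36 for wounding in Mperf15ko, 1.84 for wounding in Tak-1, and -2.06 and -1.58 for Mperf15ko against Tak-1 in wounded and control thalli. The gap in wounded thalli was near that of MpPAL7 itself, and the other 3 changes were smaller.

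The sum of the 7 PKS/CHS genes behaved differently from MpPKS/CHS11. It was 133 ± 16.4 TPM in wounded and 132 ± 31.8 TPM in control Mperf15ko, a log2 fold change of 0.04. It was 547 ± 45.3 TPM in wounded and 316 ± 21.9 TPM in control Tak-1, a log2 fold change of 0.80. The high ratio of wounded to control Mperf15ko seen for MpPKS/CHS11 was thus absent from the sum, most of which came from more abundant members. Among them MpPKS/CHS14 fell in Mperf15ko from a mean of 62.7 to 22.9 TPM, which offsets rises of others. There MpPKS/CHS12, MpPKS/CHS13, MpPKS/CHS15 and MpPKS/CHS16 had log2 fold changes of 1.26, 3.52, 0.43 and 1.71, and MpPKS/CHS10 had 0.03. The sum therefore does not show how MpPKS/CHS11 itself changed. How many reads of MpPKS/CHS11 were assigned to it from its relatives was not tested.

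Both genes held a small part of their families' transcripts, and a larger part after wounding. MpPAL7 made up 6.82% ± 0.994 of the summed TPM of 11 PAL genes, MpPAL-like1 and MpPAL-like2 included, in wounded Mperf15ko and 0.579% ± 0.316 in control Mperf15ko. In Tak-1 it made up 14.4% ± 0.913 after wounding and 2.61% ± 0.274 in control thalli (SD, n = 3 in each group). The group ranges did not overlap.

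MpPKS/CHS11 made up 0.538% ± 0.0316 of the summed TPM of 28 PKS/CHS genes in wounded Mperf15ko and 0.0899% ± 0.0301 in control Mperf15ko. In Tak-1 it made up 2.94% ± 0.36 after wounding and 0.893% ± 0.215 in control thalli. The family totals moved less than the pair. Summed PAL transcripts averaged 146 ± 16 TPM in wounded and 134 ± 6.88 TPM in control Mperf15ko, against 273 ± 31.3 TPM in wounded and 160 ± 12.5 TPM in control Tak-1. Summed PKS/CHS transcripts averaged 748 ± 32.2 TPM in wounded and 403 ± 60.7 TPM in control Mperf15ko, against 1620 ± 122 TPM in wounded and 733 ± 20.4 TPM in control Tak-1.

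**Figure D2:**
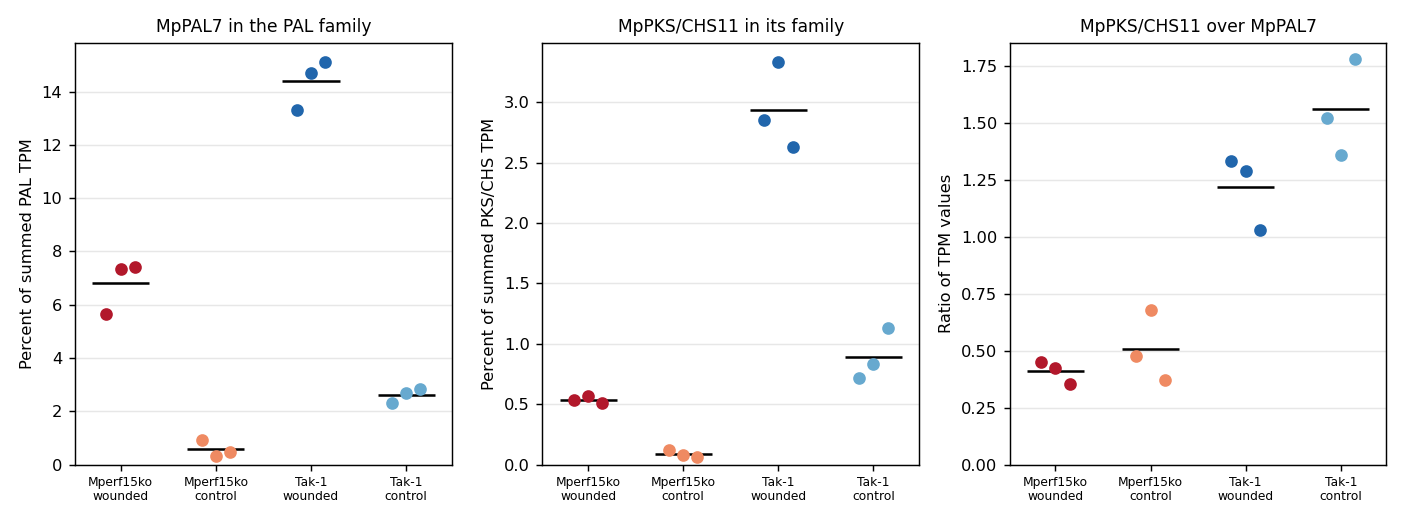
Share of MpPAL7 in the summed TPM of 11 PAL and PAL-like genes (left), share of MpPKS/CHS11 in that of 28 PKS/CHS genes (middle) and the ratio of their TPM values (right), with 1 point for each library and a bar at the group mean. The shares are highest in wounded Tak-1 (14.4% and 2.94%), and the ratio lies between 0.354 and 0.68 in Mperf15ko and between 1.03 and 1.78 in Tak-1.

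The pair lies inside a run of phenylpropanoid genes. In the gene order of the reference table, 11 consecutive entries on chromosome 4 carry a PAL or PKS/CHS symbol: MpPKS/CHS10, MpPAL7, MpPKS/CHS11, MpPAL6, MpPKS/CHS12, MpPAL-like2, MpPKS/CHS13, MpPKS/CHS14, MpPKS/CHS15, MpPAL4 and MpPKS/CHS16. The files number 2 further genes within the run that have no entry in the table, Mp4g14130, just after MpPKS/CHS11, and Mp4g14170. A PAL symbol stood next to a PKS/CHS symbol 10 times in the whole table, and 2 of these pairs lay outside the run, MpPKS/CHS8 with MpPAL2 and MpPAL3 with MpPKS/CHS20. Of the 11 PAL symbols 6 neighboured a PKS/CHS symbol, as did 8 of the 28 PKS/CHS symbols a PAL symbol.

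The other 9 genes of the run were lower in Mperf15ko almost throughout and mostly higher after wounding. Their deposited counts were fractional as well, in 8 of 12 libraries for MpPKS/CHS15 and in 12 of 12 for the others. Reads divided among these relatives and the pair may tie their values, so they may not be 9 separate results. A gene was called where its edgeR quasi-likelihood p, adjusted over all 14246 tested genes, was under 0.05. In wounded thalli 9 of 9 were lower in Mperf15ko, against 11.7% of all tested genes, and in control thalli 8 of 9 were lower, against 14.6%. None was higher in Mperf15ko in either state by edgeR or DESeq2, with 0 at an unadjusted p under 0.05. After wounding 6 rose and 1 fell in Mperf15ko, against 23.5% and 20.1% of all tested genes, and 7 rose and 1 fell in Tak-1, against 23.4% and 22.8%.

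The median log2 fold change of these 9 genes was 0.80 for wounding in Mperf15ko and 1.57 for wounding in Tak-1, where the median of all tested genes was -0.015 and -0.045. Their median was -2.49 for Mperf15ko against Tak-1 in wounded thalli and -1.84 in control thalli, beside 0.024 and -0.01 over all tested genes. For the difference between the wound responses edgeR called 0 of 9, where 1.07% of all tested genes were called, 0.4% as higher and 0.667% as lower. At an unadjusted p under 0.05 there were 2 genes, both with the smaller response in Mperf15ko, and DESeq2 called 1, MpPKS/CHS12.

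Directly before the pair, MpPKS/CHS10 was lower in Mperf15ko but had like levels in wounded and control thalli. It had 11.8, 11.0 and 13.1 TPM in wounded and 16.9, 8.46 and 9.8 TPM in control Mperf15ko, against 33.3, 38.1 and 35.9 TPM in wounded and 31.3, 36.6 and 37.6 TPM in control Tak-1. Its log2 fold change between the lines was -1.57 in wounded thalli (SE 0.201, edgeR adjusted p = 0.00022) and -1.59 in control thalli (SE 0.198, adjusted p = 0.00018). For wounding it was 0.03 (SE 0.206) in Mperf15ko and 0.01 (SE 0.188) in Tak-1, not called in either line except in Mperf15ko once control replicate 1 was left out. The immediate neighbour of MpPAL7 thus showed the genotype gap without a called wound response.

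Directly after the pair came Mp4g14130, which the sources used here do not annotate. It rose after wounding by 2.19 on the log2 scale in Mperf15ko (SE 0.347, edgeR adjusted p = 0.00021) and by 2.16 in Tak-1 (SE 0.303, adjusted p = 7.1e-05). Its level was 15.1 to 21.9 TPM in wounded and 3.83 to 4.52 TPM in control Mperf15ko, against 49.8 to 76.7 TPM in wounded and 8.64 to 20.8 TPM in control Tak-1. It was lower in Mperf15ko in wounded thalli (log2 fold change -1.68, adjusted p = 0.0021) and in control thalli (-1.71, adjusted p = 0.0035).

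MpPAL6, the next entry of the table, varied widely between replicates. It had 0.334, 0.55 and 2.91 TPM in wounded Mperf15ko against 4.1, 17.2 and 10.9 TPM in wounded Tak-1, and was called lower in wounded Mperf15ko (log2 fold change -3.11, SE 0.744, edgeR adjusted p = 0.015). That call was lost without wounded Tak-1 replicate 2, without wounded Mperf15ko replicate 2, or with the wounded groups alone in the fit. Its rise in Tak-1 (1.86, SE 0.667, adjusted p = 0.043) was lost under 11 alternative settings, such as another scaling or filter or 1 library left out. MpPKS/CHS12, behind it, fell into the common pattern: 3.25 to 5.16 TPM in wounded Mperf15ko, 1.22 to 2.3 TPM in control Mperf15ko, 37.8 to 56.0 TPM in wounded Tak-1 and 8.61 to 10 TPM in control Tak-1.

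Farther along, MpPKS/CHS14 was the member of the run that fell after wounding. It had 32.3, 16.0 and 20.4 TPM in wounded and 80.7, 52.1 and 55.1 TPM in control Mperf15ko, against 69.2, 64.2 and 58.6 TPM in wounded and 124, 139 and 122 TPM in control Tak-1. Its log2 fold change for wounding was -1.45 in Mperf15ko (SE 0.242, edgeR adjusted p = 0.0005) and -1.01 in Tak-1 (SE 0.23, adjusted p = 0.0038). In control thalli it was the most abundant PKS/CHS gene of the run per unit length. Its next neighbour MpPKS/CHS13 rose after wounding, so adjacent genes of 1 family had opposite responses.

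At the far end of the run, MpPAL4 and MpPKS/CHS16 are another of its several adjacent couples of a PAL and a PKS/CHS gene. MpPAL4 had 4.8 to 5.87 TPM in wounded and 1.85 to 3.06 TPM in control Mperf15ko, against 26.2 to 34.6 TPM in wounded and 8.91 to 10.2 TPM in control Tak-1. MpPKS/CHS16 had 13.0 to 19.4 TPM in wounded and 3.63 to 5.85 TPM in control Mperf15ko, against 117 to 145 TPM in wounded and 30.1 to 47.7 TPM in control Tak-1. Both rose after wounding in both lines and were lower in Mperf15ko in both states, with log2 fold changes for wounding of 1.06 and 1.71 in Mperf15ko and of 1.57 and 1.82 in Tak-1. For this couple, wounded Mperf15ko lay below control Tak-1 in the enzyme of either step.

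Genes beside the run were counted in the same way, against the shares over all tested genes. Of the 4 genes on each side of the run, 7 of 8 could be tested. None was called between the lines in wounded thalli by edgeR, against 23.5% of all tested genes in either direction. At an unadjusted p under 0.05 there were 1 higher and 2 lower, and DESeq2 called 1 lower. In control thalli 1 was lower in Mperf15ko, a count near the share of 14.6% over all tested genes. It was Mp4g14070, with a log2 fold change of -0.47 (SE 0.145, edgeR adjusted p = 0.026). That call was lost under 5 alternatives, among them leaving out control Tak-1 replicate 1 or 2 or control Mperf15ko replicate 2 or 3. After wounding 2 rose and 1 fell in Mperf15ko, and 2 rose and 2 fell in Tak-1, counts of the order of the shares over all tested genes (23.5% and 20.1% in Mperf15ko, 23.4% and 22.8% in Tak-1). The strongest of these, Mp4g14080, rose by 1.90 on the log2 scale in Mperf15ko (SE 0.0928, adjusted p = 1e-09) and by 2.35 in Tak-1 (SE 0.0938, adjusted p = 1.6e-10). It was not called between the lines, except under 4 alternatives in control and 1 in wounded thalli that each left out a library. No test compared the run with its surroundings as such.

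Counted by the 5 annotated genes on each side of the pair, 4 of 10 rose and 2 fell after wounding in Mperf15ko, and 5 rose and 2 fell in Tak-1. Over all tested genes 23.5% rose and 20.1% fell in Mperf15ko, and 23.4% rose and 22.8% fell in Tak-1. In both wounded and control thalli 6 of the 10 were lower in Mperf15ko, against 11.7% and 14.6% of all tested genes, and none was higher by edgeR. DESeq2 also called none higher, with 0 at an unadjusted p under 0.05 in wounded and 1 in control thalli. These neighbours overlap with the run. All of those called lower by edgeR in wounded thalli, and all but Mp4g14070 in control thalli, were genes of the run already counted above.

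**Figure D3:**
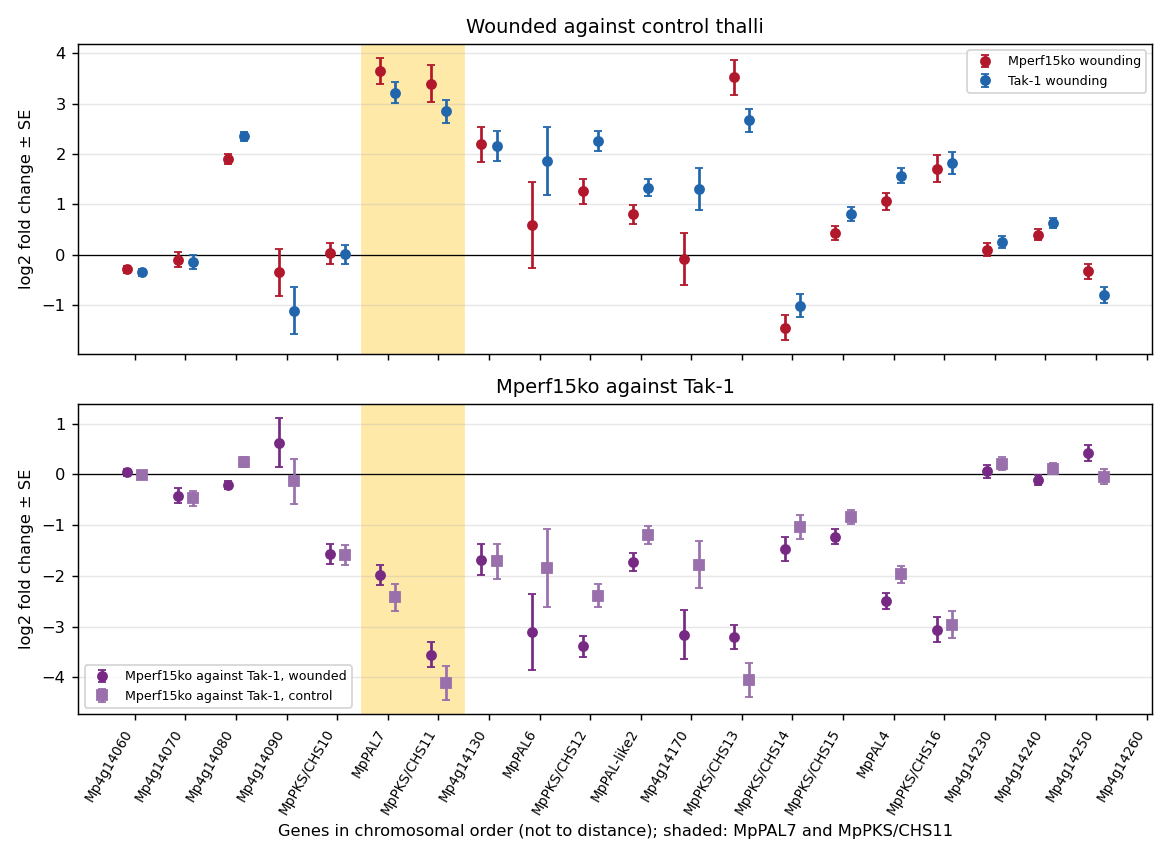
Fitted log2 fold change with its SE for genes in the order of their numbers along chromosome 4, from 4 genes before the run of PAL and PKS/CHS genes to 4 after it. The upper panel gives wounded against control thalli in each line, and the lower panel Mperf15ko against Tak-1 in each state. The shaded pair has log2 fold changes of 3.65 and 3.40 for wounding in Mperf15ko. Genes of the run lie below 0 in the lower panel, and those outside it between -0.47 and 0.62. Mp4g14260 was too low to test and has no point.

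Across the rest of the PAL family genes went in both directions after wounding. Of 8 other genes with a numbered PAL symbol, MpPAL4 and MpPAL6 of the run included, 7 were tested. After wounding 2 rose and 3 fell in Mperf15ko, against 23.5% and 20.1% of all tested genes, and 3 rose and 2 fell in Tak-1, against 23.4% and 22.8%. In Mperf15ko 5 were lower, against 11.7% of all tested genes, and none was higher in wounded thalli by edgeR or DESeq2, with 1 higher at an unadjusted p under 0.05. In control thalli 4 were lower and 2 higher, against 14.6% and 13.6%. Neither edgeR nor DESeq2 called any for the difference between the wound responses, and 1 was lower at an unadjusted p under 0.05. That list leaves out both PAL-like genes. MpPAL-like2, inside the run, rose after wounding by 0.80 in Mperf15ko (edgeR adjusted p = 0.0031) and by 1.33 in Tak-1 (adjusted p = 2.8e-05), and was lower in Mperf15ko by the test, with log2 fold changes of -1.73 in wounded and -1.20 in control thalli. MpPAL-like1 passed in 1 comparison, as lower in control Mperf15ko (-1.56, adjusted p = 0.0045).

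These counts were small enough to turn on a single library. Without wounded Tak-1 replicate 2, the genes called went to 3 for wounding in Tak-1 and to 3 between the lines in wounded thalli. Without control Tak-1 replicate 1, or control Mperf15ko replicate 2 or 3, those called between the lines in control thalli went to 3.

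MpPAL3, which lies on chromosome 7 beside MpPKS/CHS20, had a genotype gap close to that of MpPKS/CHS11. Its level was 1.5, 1.55 and 1.05 TPM in wounded and 0.85, 0.469 and 0.331 TPM in control Mperf15ko, against 13.9, 19.9 and 14.0 TPM in wounded and 7.58, 7.15 and 11.3 TPM in control Tak-1. Its log2 fold change between the lines was -3.52 in wounded thalli (SE 0.29, edgeR adjusted p = 5.1e-06) and -3.96 in control thalli (SE 0.319, adjusted p = 7.1e-06). Its rise after wounding was smaller, 1.30 in Mperf15ko (SE 0.367, adjusted p = 0.011) and 0.85 in Tak-1 (SE 0.243, adjusted p = 0.01), and the rise in Tak-1 was lost without wounded Tak-1 replicate 2 and with transcripts as features.

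No other PAL gene outside the run than MpPAL3 was called as higher after wounding. MpPAL10, the most abundant by mean TPM over the 12 libraries, averaged 76.1 ± 9.53 TPM in wounded and 70.7 ± 8.37 TPM in control Mperf15ko, against 61.5 ± 3.52 TPM in wounded and 52.7 ± 6.06 TPM in control Tak-1 (SD, n = 3 each). It was higher in control Mperf15ko by 0.42 on the log2 scale (SE 0.136, edgeR adjusted p = 0.034), a call lost under 5 alternatives. MpPAL8 fell after wounding in Mperf15ko (-0.73, SE 0.112, adjusted p = 8.9e-05) and in Tak-1 (-0.55, SE 0.111, adjusted p = 0.00096), and its call as higher in control Mperf15ko (0.33, adjusted p = 0.035) was lost under 7 alternatives. MpPAL1 was lower after wounding and lower in Mperf15ko in every comparison, with log2 fold changes of -0.52 and -0.57 for wounding in Mperf15ko and Tak-1. MpPAL9 fell after wounding in Mperf15ko (-0.75, adjusted p = 0.024), a call lost under 4 alternatives. It was lower in Mperf15ko in wounded thalli (-1.01, edgeR adjusted p = 0.01), a call lost without wounded Tak-1 replicate 2, and in control thalli (-0.74, adjusted p = 0.029), a call lost under 5 alternatives.

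MpPAL2, the PAL gene beside MpPKS/CHS8, was too low to test. It was at 0 to 0.121 TPM in wounded and 0.0293 to 0.0992 TPM in control Mperf15ko, and at 0.184 to 0.289 TPM in wounded and 0.0922 to 0.195 TPM in control Tak-1.

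PKS/CHS genes also went in both directions after wounding. Of 27 other members, those of the run included, 21 were tested. Outside the run, the counts of MpPKS/CHS18, MpPKS/CHS20, MpPKS/CHS21 and MpPKS/CHS23 were also fractional in 12 of 12 libraries. After wounding 11 rose and 3 fell in Mperf15ko, against 23.5% and 20.1% of all tested genes, and 10 rose and 4 fell in Tak-1, against 23.4% and 22.8%. In Mperf15ko 11 were lower and 1 higher in wounded thalli, against 11.7% and 11.8%, and 13 were lower and 2 higher in control thalli, against 14.6% and 13.6%. The medians were 0.43 and 0.47 for wounding in Mperf15ko and Tak-1, and -0.86 and -0.97 between the lines in wounded and control thalli. The difference between the wound responses had 0 calls by edgeR, 4 higher and 1 lower at an unadjusted p under 0.05, and 1 higher and 1 lower by DESeq2. Without control Mperf15ko replicate 1 edgeR called 2.

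MpPKS/CHS21 and MpPKS/CHS18, which lie outside the run, had the largest wound responses of the family by the naming rule. MpPKS/CHS21 had 91.4 to 111 TPM in wounded and 2.37 to 5.22 TPM in control Mperf15ko, against 198 to 241 TPM in wounded and 14.5 to 18.2 TPM in control Tak-1. Its log2 fold change for wounding was 4.64 in Mperf15ko (SE 0.218, edgeR adjusted p = 4.1e-09) and 3.77 in Tak-1 (SE 0.194, adjusted p = 7.8e-09). MpPKS/CHS18 had 64.0 to 85.3 TPM in wounded and 1.99 to 4.84 TPM in control Mperf15ko, against 178 to 214 TPM in wounded and 15.2 to 24.5 TPM in control Tak-1. In both genes wounded Mperf15ko lay far above control Tak-1, as for MpPAL7 and unlike MpPKS/CHS11.

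Between the lines these genes differed less than MpPKS/CHS11. MpPKS/CHS21 was lower in Mperf15ko with log2 fold changes of -1.12 in wounded thalli (SE 0.173, edgeR adjusted p = 0.00084) and -2.0 in control thalli (SE 0.217, adjusted p = 7.1e-05). For MpPKS/CHS18 they were -1.37 in wounded (SE 0.236, adjusted p = 0.0025) and -2.58 in control thalli (SE 0.299, adjusted p = 0.00019). MpPKS/CHS13, inside the run, had gaps of a size near those of MpPKS/CHS11, with -3.20 in wounded (SE 0.241, adjusted p = 5e-06) and -4.05 in control thalli (SE 0.334, adjusted p = 1.4e-05).

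By mean TPM over the 12 libraries, MpPKS/CHS23, MpPKS/CHS15 and MpPKS/CHS21 were highest in the family, though the order differed between groups. MpPKS/CHS23 averaged 161 ± 7.34 TPM in wounded and 54.7 ± 11.6 TPM in control Mperf15ko, against 324 ± 24.4 TPM in wounded and 133 ± 8.31 TPM in control Tak-1. MpPKS/CHS15, inside the run, averaged 67.7 ± 10.2 TPM in wounded and 50.5 ± 10 TPM in control Mperf15ko, against 160 ± 6.3 TPM in wounded and 90.2 ± 6.51 TPM in control Tak-1. MpPKS/CHS11 averaged 47.8 ± 9.55 TPM in wounded Tak-1, below each of these 3 genes. The rise of MpPKS/CHS15 in Mperf15ko (0.43, edgeR adjusted p = 0.028) was lost under 5 alternatives, upper quartile scaling among them.

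Of the enzymes that act between the steps of the pair, both 4CL genes rose after wounding without a lower level in Mperf15ko. The enzyme 4-coumarate:CoA ligase is encoded by Mp4CL1 and Mp4CL2. Mp4CL1 had 82.1, 87.0 and 102 TPM in wounded and 8.88, 12.4 and 9.37 TPM in control Mperf15ko, against 86.9, 91.2 and 95.2 TPM in wounded and 10.4, 9.19 and 10.5 TPM in control Tak-1. It rose after wounding by 3.15 on the log2 scale in Mperf15ko (SE 0.115, edgeR adjusted p = 6.9e-11) and by 3.17 in Tak-1 (SE 0.114, adjusted p = 8.9e-11), a size near that of the pair. Between the lines its ranges overlapped in both states, with log2 fold changes of 0.00 (SE 0.103) in wounded and 0.02 (SE 0.114) in control thalli.

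Mp4CL2 went the other way between the lines in wounded thalli. It averaged 262 ± 8.85 TPM in wounded Mperf15ko and 188 ± 9.8 TPM in wounded Tak-1, higher by 0.49 on the log2 scale (SE 0.083, edgeR adjusted p = 0.0011). It rose after wounding by 2.09 in Mperf15ko (SE 0.0866, adjusted p = 2.1e-10) and by 1.63 in Tak-1 (SE 0.0853, adjusted p = 1.8e-09). In control thalli the lines did not differ by the test (0.03, adjusted p = 0.86).

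Cinnamate 4-hydroxylase is encoded by MpC4H1, MpC4H2 and MpC4H3. MpC4H1, the most abundant of them, rose after wounding by 0.62 in Mperf15ko (SE 0.0714, edgeR adjusted p = 5.7e-06) and by 0.78 in Tak-1 (SE 0.0712, adjusted p = 5.2e-07). It was lower in Mperf15ko, with log2 fold changes of -0.62 in wounded (adjusted p = 5.6e-05) and -0.46 in control thalli (adjusted p = 0.00049). MpC4H2 did not pass for wounding and was lower in Mperf15ko in both states (-0.69 and -0.64 in wounded and control thalli). MpC4H3 was lower in control Mperf15ko (-1.0, adjusted p = 0.0016), and its fall after wounding in Tak-1 (-0.57, adjusted p = 0.02) was lost under 5 alternatives. Between the lines in wounded thalli it was not called (-0.55, edgeR adjusted p = 0.054), except under 8 alternatives, DESeq2 among them.

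Downstream of chalcone synthase, chalcone isomerase (MpCHI) closes the flavanone ring, and the CHI-like proteins include enhancers of flavonoid formation in other plants. MpCHI rose after wounding in Mperf15ko (0.54, SE 0.0804, edgeR adjusted p = 6.6e-05) and was lower in control Mperf15ko than in control Tak-1 (-0.54, SE 0.08, adjusted p = 0.00033). MpCHIL1 rose in both lines (0.49 in Mperf15ko, adjusted p = 0.00081, and 0.64 in Tak-1, adjusted p = 6.4e-05). MpCHIL2 and MpCHIL3 passed in no comparison, with log2 fold changes between -0.14 and 0.19. None of these genes had a change as large as those of the pair.

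**Figure D4:**
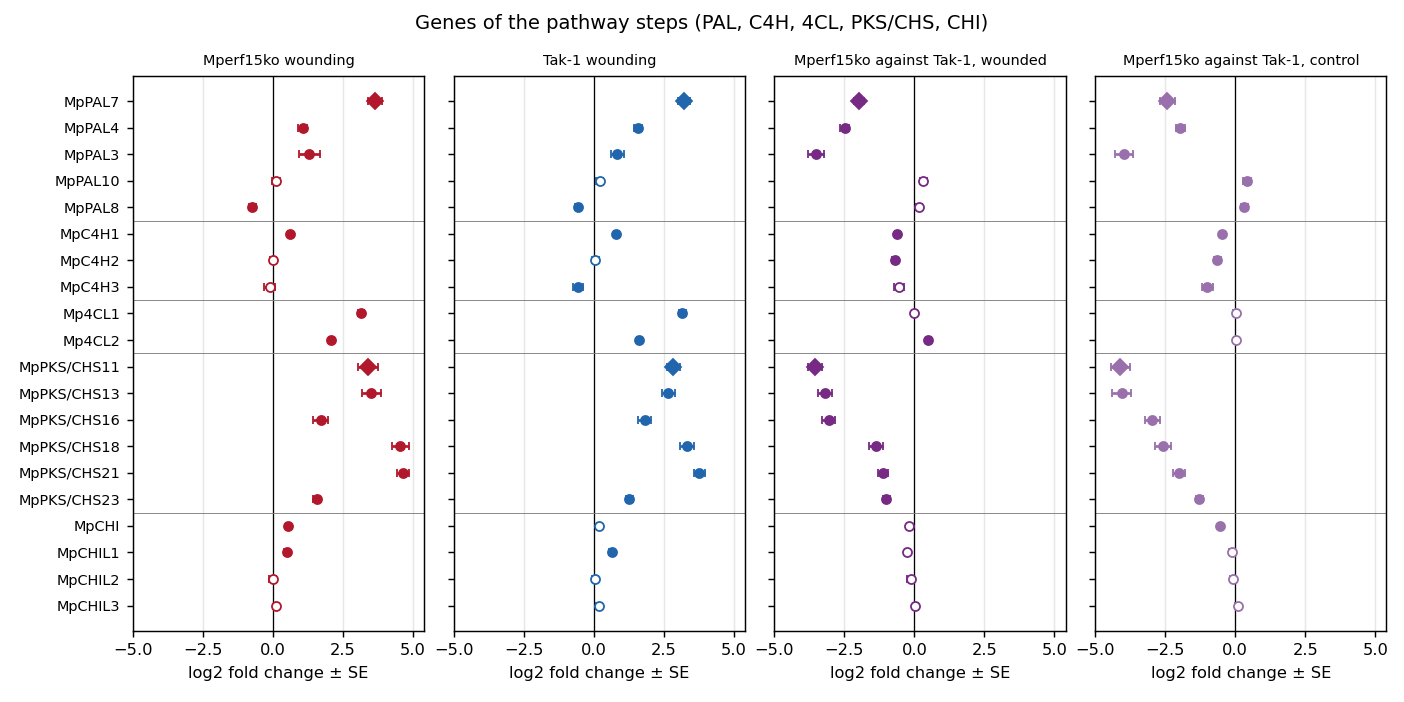
Fitted log2 fold change with its SE for genes of successive pathway steps, from PAL at the top through C4H, 4CL and PKS/CHS to CHI. Panels from left to right give wounding in Mperf15ko, wounding in Tak-1, and Mperf15ko against Tak-1 in wounded and in control thalli. Diamonds mark the pair, for which no test result is shown, and filled circles mark other genes called at an adjusted p under 0.05. Mp4CL1 has log2 fold changes of 3.15 and 3.17 for wounding and of 0.00 and 0.02 between the lines.

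Taking the other listed phenylpropanoid genes as a group, 41 of 44 were tested. After wounding 11 rose and 14 fell in Mperf15ko, and 8 rose and 16 fell in Tak-1. In Mperf15ko 7 were higher and 9 lower in wounded thalli, and 6 were higher and 13 lower in control thalli. Over all tested genes 23.5% rose and 20.1% fell in Mperf15ko and 23.4% rose and 22.8% fell in Tak-1, while 11.8% were higher and 11.7% lower in wounded, and 13.6% higher and 14.6% lower in control Mperf15ko. The count of higher genes after wounding was near its share in both lines, while the count of lower genes was above its share. Between the lines, the count lower in Mperf15ko was above its share in both states. The medians of the listed genes were near 0, at -0.08 and -0.05 for wounding in Mperf15ko and Tak-1 and at -0.02 and -0.16 between the lines in wounded and control thalli. For the difference between the wound responses edgeR called 0, with 4 higher and 1 lower at an unadjusted p under 0.05, and DESeq2 called 1 higher, Mp4CL2.

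Within that group MpDFR-like19, named as related to dihydroflavonol reductases, had the directions of the pair in all 4 comparisons, as did MpC4H1. It had 19.4, 14.0 and 12.8 TPM in wounded and 4.07, 4.03 and 4.55 TPM in control Mperf15ko, against 46.6, 49.9 and 40.9 TPM in wounded and 9.41, 8.43 and 9.81 TPM in control Tak-1. It rose after wounding by 1.87 in Mperf15ko (edgeR adjusted p = 5.5e-07) and by 2.30 in Tak-1 (adjusted p = 2.6e-08), and was lower in Mperf15ko, with log2 fold changes of -1.56 in wounded (adjusted p = 1.4e-05) and -1.13 in control thalli (adjusted p = 0.0004). Its neighbour MpDFR-like18 was lower in wounded Mperf15ko (-1.27, adjusted p = 0.0014). MpF3H, named as a flavanone 3-hydroxylase, fell by 0.87 in Mperf15ko and fell by 1.05 in Tak-1 on the log2 scale after wounding, and was lower in Mperf15ko in both states. MpDFR-like9 was lower in Mperf15ko in both states, and MpDFR-like13 fell after wounding in both lines.

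Among regulators, MpR2R3-MYB14 drives auronidin pigment formation in Marchantia. It was barely expressed, at 0.0512 to 0.262 TPM in wounded and 0.0372 to 0.105 TPM in control Mperf15ko, and at 0.176 to 0.238 TPM in wounded and 0.0206 to 0.105 TPM in control Tak-1. Its rise in Tak-1 (1.63, SE 0.618, edgeR adjusted p = 0.043) was lost under 11 alternatives, DESeq2 among them. MpR2R3-MYB2, of the same factor family, passed in no comparison. The basic helix-loop-helix gene MpBHLH12 was higher in Mperf15ko by 0.65 in wounded (SE 0.105, adjusted p = 0.00075) and by 0.63 in control thalli (SE 0.104, adjusted p = 0.00067), opposite to the pair, and did not pass for wounding.

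Marker genes of cell types were read beside these values. The 5 oil body cell markers summed to 19.3 to 29.4 TPM in wounded and 10.2 to 17.2 TPM in control Mperf15ko, and to 30.7 to 38.8 TPM in wounded and 14.9 to 21.7 TPM in control Tak-1. The rise of these sums after wounding came from MpC1HDZ, with means of 18.5 and 4.17 TPM in wounded and control Mperf15ko. In wounded and control Tak-1 its means were 26.3 and 5.25 TPM. The other 4 markers of the list had negative log2 fold changes for wounding in both lines. In that list 1 of 5, MpC1HDZ, rose after wounding in each line, by 2.15 in Mperf15ko and 2.32 in Tak-1, and MpABCG1 fell in Mperf15ko (-0.55, edgeR adjusted p = 0.038). Over all tested genes 23.5% rose and 20.1% fell in Mperf15ko, and 23.4% rose and 22.8% fell in Tak-1. In wounded thalli 2 of 5 were lower in Mperf15ko, against 11.7% of all tested genes. They were MpC1HDZ and MpABCG1, with log2 fold changes of -0.50 and -0.71. In control thalli edgeR called 0 of 5 between the lines, against 28.1% of all tested genes in either direction, with 1 lower at an unadjusted p under 0.05 and 1 lower by DESeq2. None of the 5 was at 0 in every library.

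The 5 thallus markers summed to 497 to 604 TPM in wounded and 413 to 445 TPM in control Mperf15ko, and to 648 to 727 TPM in wounded and 462 to 609 TPM in control Tak-1. Most of each sum was MpRBCS, which averaged 419 TPM in wounded and 355 TPM in control Mperf15ko. In wounded and control Tak-1 MpRBCS averaged 563 and 479 TPM. MpGCAM1 had 0.277 to 4.8 TPM. The sums are therefore no check of the tissue label. Of the 5 thallus markers 3 rose in Mperf15ko and 4 in Tak-1 after wounding, against 23.5% and 23.4% of all tested genes. In wounded thalli 2 were lower in Mperf15ko, MpRBCS and MpSYP13B, against 11.7% of all tested genes. In control thalli 2 were lower, MpRBCS and MpGCAM1, against 14.6%. The sexual organ marker MpDUO1 was low, between 0.117 and 1.03 TPM. It rose after wounding by 1.64 on the log2 scale in Mperf15ko (edgeR adjusted p = 0.00063) and by 1.54 in Tak-1 (adjusted p = 0.0013). Between the lines MpDUO1 was not called in either state. The part of any of these cell types in the values of the pair was not tested.

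Profiles most like those of the pair were sought among 14245 other tested genes, by the root mean square distance of centred log2 CPM over the 12 libraries. For MpPAL7 the nearest was MpDIR33, of the dirigent family whose proteins steer the coupling of phenoxy radicals, at 0.373 log2 units. It had 8.37 to 9.99 TPM in wounded and 0.546 to 0.793 TPM in control Mperf15ko, against 34.0 to 48.7 TPM in wounded and 5.5 to 7.37 TPM in control Tak-1. Then came the unnamed Mp2g20260 at 0.381, MpPKS/CHS18 at 0.397, the unnamed Mp5g21770 at 0.45 and MpDIR32, the neighbour of MpDIR33, at 0.493. A PKS/CHS gene elsewhere on chromosome 4 was therefore closer in profile to MpPAL7 than its own neighbour MpPKS/CHS11, which ranked 47 at 0.847.

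For MpPKS/CHS11 the nearest profile was that of MpPKS/CHS13 in the same run, at 0.272 log2 units. MpPKS/CHS13 had 5.69 to 8.95 TPM in wounded and 0.388 to 0.708 TPM in control Mperf15ko, against 57.8 to 75.4 TPM in wounded and 7.66 to 12.9 TPM in control Tak-1. The counts of MpPKS/CHS13 were fractional in 12 of 12 libraries as well, and reads shared between it and MpPKS/CHS11 cannot be told apart from a like change. The next were MpDIR41 at 0.653, MpPR15d at 0.668, MpDIR33 at 0.672 and the polyphenol oxidase gene MpPPO25 at 0.697. In control Mperf15ko MpDIR41 was at 0 TPM, MpPR15d at 0 to 0.199 TPM and MpPPO25 at 0.0781 to 0.109 TPM. The distances of these genes therefore depend on how low values are treated. MpPAL7 ranked 15.

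Over the whole table, 98 genes, or 0.688% of those tested, were at least 2-fold higher in both wound responses and at least 2-fold lower in Mperf15ko in both states. Each fold also had to have an edgeR adjusted p under 0.05. The pair had been chosen by the same comparisons, so its own place among these genes is no independent result. There were 12 adjacent couples in which both genes met these conditions. The couple of MpPAL7 and MpPKS/CHS11 and that of MpPAL4 and MpPKS/CHS16 were the ones of a PAL and a PKS/CHS gene. The others included MpPPO2 with MpPPO3, MpDIR33 with MpDIR32, and 7 couples of LEA or LEA-like genes.

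Whether the 2 genes also varied together between replicates of a group was examined on deviations from the group means, which the choice of the pair did not use. Over the 12 libraries Pearson's r was 0.796 and Spearman's rho 0.706. An exact 2-sided permutation within groups, with 1296 arrangements, gave p = 0.0965 for r and p = 0.0733 for rho, so the relation did not pass 0.05. On log2(TPM + 0.5) r was 0.737, with exact p = 0.0494. Without control Mperf15ko replicates 1 and 2, whose deviations of MpPAL7 were farthest from the median, r was 0.779 with exact p = 0.0509. It was the only such relation tested. Across 10472 adjacent couples of tested genes the median r was 0.0575, and 2.48% had an r as high, all of them read from the same libraries.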

How the data were processed

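Column-purified RNA went into stranded mRNA libraries, per the labels' protocols. Per the file headers, the authors deposited for each library a Salmon table with an estimated count of reads and a TPM value for each of 24751 transcripts. CASAVA and Salmon 0.7.2 are named, without their roles, per the submitters' processing notes. The build, transcript set, index and options were not given in the sources used here. In each library, 32.8% to 37.6% of the deposited estimated counts were not whole.

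Estimated counts were summed by gene and rounded to whole numbers. Cell means of the 4 groups were fitted over 12 libraries with edgeR 4.0.16 in R 4.3.3 (filterByExpr by group, TMM, robust glmQLFit, glmQLFTest), with Benjamini-Hochberg adjustment over 14246 genes and a threshold of 0.05. The common biological coefficient of variation was 0.126. The fit was tested on simulated counts. The labels call the samples of a group independent biological replicates. Correlations and distances used log2 CPM with a prior count of 0.5, in Python 3.11.15. DESeq2 1.42.0 served as an alternative, with other scalings, no filter, transcripts as features, only the groups of a contrast, a replicate block and leaving out each library.

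Gene names and order came from the reference table of MpTak2_v7.1, an assembly of the female Takaragaike-2, by the number part of the locus tag. Of 19421 genes, 17386 (89.5%) matched. The lists were filled by symbol, and the run of 11 genes by symbol and order. Marker symbols TGA, RSL1 to RSL3, BNB and FGMYB had no match. The members and lists were chosen with earlier results of these data known. Named genes were the pair, its 5 annotated neighbours on each side, for each family the 3 called genes with the largest absolute log2 fold change per comparison and the 3 most abundant, for other phenylpropanoid genes the 4 largest and every gene of the roles C4H, 4CL, CHI, CHI-like, MYB14, MYB02 and BHLH12, and the 5 nearest profiles. The genes of the run beyond those, and the ends of the run, were described after their values had been seen.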

Additional observations from a re-analysis of the deposited data

How the results depend on the processing

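Of 208 values of the pair under alternatives, 187 moved by less than 1 SD of the replicates (0.401 for MpPAL7 and 0.449 for MpPKS/CHS11 on the log2 scale), and 4 changed sign. Leaving out each library in turn, the log2 fold change of MpPAL7 ranged from 3.38 to 4.15 for wounding in Mperf15ko, from 3.03 to 3.4 for wounding in Tak-1, from -2.09 to -1.9 between the lines in wounded thalli, from -2.91 to -2.14 in control thalli, and from 0.13 to 0.91 for the difference between the wound responses. For MpPKS/CHS11 these ranges were 3.13 to 3.94, 2.65 to 3.16, -3.69 to -3.41, -4.64 to -3.8 and 0.23 to 1.07. The end farthest from the main value came from leaving out control Mperf15ko replicate 1 in each comparison that uses that group.

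From log2(TPM + 0.5), MpPAL7 gave 3.08 for wounding in Mperf15ko, -1.92 between the lines in control thalli and -0.01 for the difference, and MpPKS/CHS11 gave 2.39, -3.01 and -0.39. That pseudocount is near the control Mperf15ko levels, so it shrinks these folds. With the family genes of the run summed, a choice added after seeing the data, the PAL sum gave 1.36 for wounding in Mperf15ko, 1.84 for wounding in Tak-1, -1.58 between the lines in control thalli and -0.48 for the difference. The PKS/CHS sum gave 0.04, 0.80, -1.27 and -0.76, and -2.03 between the lines in wounded thalli.

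Counts for other PAL genes ranged under leave-one-out from 3 to 5 for wounding in Tak-1, 3 to 7 between the lines in control and 3 to 5 in wounded thalli. For the difference between the wound responses DESeq2 called 2 other PKS/CHS genes, 1 other phenylpropanoid gene, 2 flanking genes and 1 gene of the run outside the pair, where edgeR called 0, and leaving out libraries gave 0 to 2 for PKS/CHS. The correlation of the pair within groups was 0.737 on log2(TPM + 0.5), with exact p = 0.0494. The causes of these shifts in calls were not tested. Of 190 results of other named genes 101 were called, and 86 of these were called with the same sign under every alternative that gave a value. Upper quartile scaling shifted the median of all genes for wounding to -0.133 in Mperf15ko and -0.179 in Tak-1, against -0.015 and -0.045 with TMM.

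Same-numbered libraries of different groups correlated between -0.289 and 0.193 in their deviations. Differently numbered libraries were not compared, so whether replicate numbers pair the libraries cannot be read from these values. With the replicate block, the wounding values in Tak-1 were 3.22 for MpPAL7 and 2.84 for MpPKS/CHS11. The low reads of the pair in control Mperf15ko limit every value that uses that group.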
